A study of Mus musculus with 6 samples.

Results

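Cells receive Hedgehog signals through a small set of membrane proteins and answer through the GLI transcription factors, and 9 genes of this machinery were followed here in cultured mouse kidney stroma: Smo, Ptch1, Boc, Cdon, Gas1, Hhip, Gli1, Gli2 and Gli3. They were taken by gene symbol from a table of 78409 genes, and each symbol had 1 row. The cells were nephrogenic stroma, the connective tissue around forming nephrons, taken from wild-type CD1 mouse embryos at day 18 by digesting pooled kidneys and sorting cells with PDGFRa on their surface. They were cultured for 18 h in serum-containing medium on glass coated with the silicone elastomer PDMS. The coating had been incubated with bovine fibronectin at 500 ng/mL (low adhesion, 3 libraries) or 50000 ng/mL (high adhesion, 3 libraries), with 1 library of either kind from every one of 3 litters. No group was free of fibronectin and no uncultured cells are compared, and the bulk RNA of each library came from a pool of kidneys.

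Hedgehog ligands are secreted, lipid-modified proteins. Without ligand, the receptor Patched-1 (Ptch1) keeps the membrane protein Smoothened (Smo) inactive. The coreceptors Boc, Cdon and Gas1 help the ligand bind Patched-1, and active Smoothened, in the primary cilium, turns GLI2 and GLI3 from repressors into activators. Gli1, Ptch1 and Hhip, a decoy that binds the ligand, are themselves transcribed in response, so their transcripts are the usual readout of pathway activity. In the fetal kidney the collecting system is a source of Sonic hedgehog for the surrounding mesenchyme.

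Of the 9 genes, the coreceptor gene Boc was the 1 that differed between the substrates past the threshold. It was 1.44-fold lower at high adhesion, and Cdon, its closest relative, was 1.28-fold lower without passing. The 3 response genes showed no change that could be detected. Ptch1 was level to within counting error, and Gli1 and Hhip were close to the detection limit on both substrates. Smo, Gas1 and Gli3 were at similar levels on both, and Gli2 was 1.13-fold higher at high adhesion without passing.

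Upstream sequences of Ptch1 and Hhip are shown because these 2 genes are direct outputs of GLI factors in textbook accounts and thus stand for the response in these data. They come from RefSeq on build GRCm38.p6, which is not the build of the counts. Each runs 5′ to 3′ on the gene's strand over the 250 bases before the annotated start, with CG dinucleotides in capitals. Ptch1 is at chr13:63565736-63565985 on the minus strand and Hhip at chr8:80058009-80058258 on the minus strand.
Ptch1: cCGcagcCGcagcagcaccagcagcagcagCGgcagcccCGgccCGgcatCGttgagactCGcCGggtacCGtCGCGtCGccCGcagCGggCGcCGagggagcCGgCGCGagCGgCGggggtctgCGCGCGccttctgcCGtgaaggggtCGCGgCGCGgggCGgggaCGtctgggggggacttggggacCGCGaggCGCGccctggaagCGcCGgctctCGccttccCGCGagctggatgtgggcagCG
Hhip: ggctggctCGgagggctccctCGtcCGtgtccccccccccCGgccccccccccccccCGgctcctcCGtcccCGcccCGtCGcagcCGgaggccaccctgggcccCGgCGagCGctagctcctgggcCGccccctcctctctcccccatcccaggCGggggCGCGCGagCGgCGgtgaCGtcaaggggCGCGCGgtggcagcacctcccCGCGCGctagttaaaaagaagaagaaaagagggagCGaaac
The Ptch1 stretch held 41 CG dinucleotides and the Hhip stretch 28. Promoter sequences of 300 bases, from 250 before to 50 after the start, were at hand for 7 of the 9 genes, namely Cdon, Gas1, Gli2, Gli3, Hhip, Ptch1 and Smo. Their GC content ran from 44.7% for Cdon to 76.3% for Ptch1, against a median of 52.7% over all 32851 promoters in the table. Of the 7, 6 had more CG dinucleotides than the median promoter, which had 7, and Cdon had 3. The GLI binding motif GACCACCCA was searched on both strands. It was in 0 of these 7 windows and in 0.253% of all promoters, and its 8-letter core ACCACCCA was in 0 of 7 and in 1.48% of all. These letters are not in these windows, and sites farther away were not examined.

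The levels below are CPM, the deposited counts scaled so that each library has the same total. Library totals were between 12596249 and 13508257 counts, so 3 counts stood for 0.222 to 0.238 CPM. Changes are log2 fold changes of high over low adhesion from a model with litter as a block, fitted over the 14834 genes that passed a filter on low counts. Of the 9 genes 7 passed it, and Gli1 and Hhip did not. A gene was called at an adjusted p (edgeR, Benjamini-Hochberg over all tested genes) under 0.05. Over all tested genes 9.55% were called, 4.71% higher and 4.83% lower at high adhesion. Of the 7 genes 1 was called, and it was lower. None was called higher in edgeR, DESeq2 or limma-voom, and 3 of the 7 had an unadjusted edgeR p under 0.05, beside 21.9% of all tested genes, among them Gli2 above zero. The median log2 fold change of the 7 was -0.06, against -0.0012 over all tested genes.

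The coreceptors come first. Boc (ENSMUSG00000022687) encodes a membrane protein of the immunoglobulin superfamily that binds Hedgehog ligand. Its level at low adhesion was 17.5, 22.8 and 17.0 CPM in litters 1, 2 and 3, and at high adhesion 13.3, 14.6 and 11.8 CPM. All 3 high adhesion libraries lay below all 3 low adhesion ones, and each litter moved down. The means were 19.1 ± 3.23 and 13.2 ± 1.42 CPM (SD, n = 3 each). The log2 fold change was -0.53 ± 0.09 (standard error, edgeR adjusted p = 0.000123), a change of -30.8% with a 95% interval from -38.8% to -21.7%. Of the tested genes 338 had a lower log2 fold change than Boc. Boc had whole-number counts in all 6 libraries, from 159 to 301. DESeq2 with litter in the model also called it (adjusted p = 0.0317), whereas without the replicate block, where 0.243% of all tested genes were called, it did not pass (edgeR adjusted p = 0.252).

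Cdon (ENSMUSG00000038119), the second immunoglobulin-type coreceptor, was at 9.50, 7.89 and 9.47 CPM at low adhesion in litters 1, 2 and 3, and at 7.44, 6.63 and 7.03 CPM at high adhesion. Again the groups did not overlap and 3 of 3 litters were lower. The log2 fold change of -0.35 ± 0.12 missed the threshold (standard error, n = 3 each, edgeR adjusted p = 0.0552), with a 95% interval of the change from -33.6% to -7.50%. Over genes of at least 5 CPM alone, which lowers the number of tests to 10202, it passed (edgeR adjusted p = 0.0436). Its adjusted p over all settings ran from 0.0436 to 0.713, the latter in DESeq2. Gas1 (ENSMUSG00000052957), the third coreceptor, is a protein tethered to the membrane by a lipid anchor and was first known from growth-arrested fibroblasts. It was at 71.7, 61.1 and 75.5 CPM at low and 73.3, 62.9 and 64.6 CPM at high adhesion. The groups overlapped, 2 litters were slightly higher and litter 3 was lower. Its log2 fold change was -0.06 ± 0.06 (edgeR adjusted p = 0.663), and the 95% interval allows a change between -11.6% and 4.69%. Whether the changes of Boc, Cdon and Gas1 differ from one another was not tested.

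**Figure D1:**
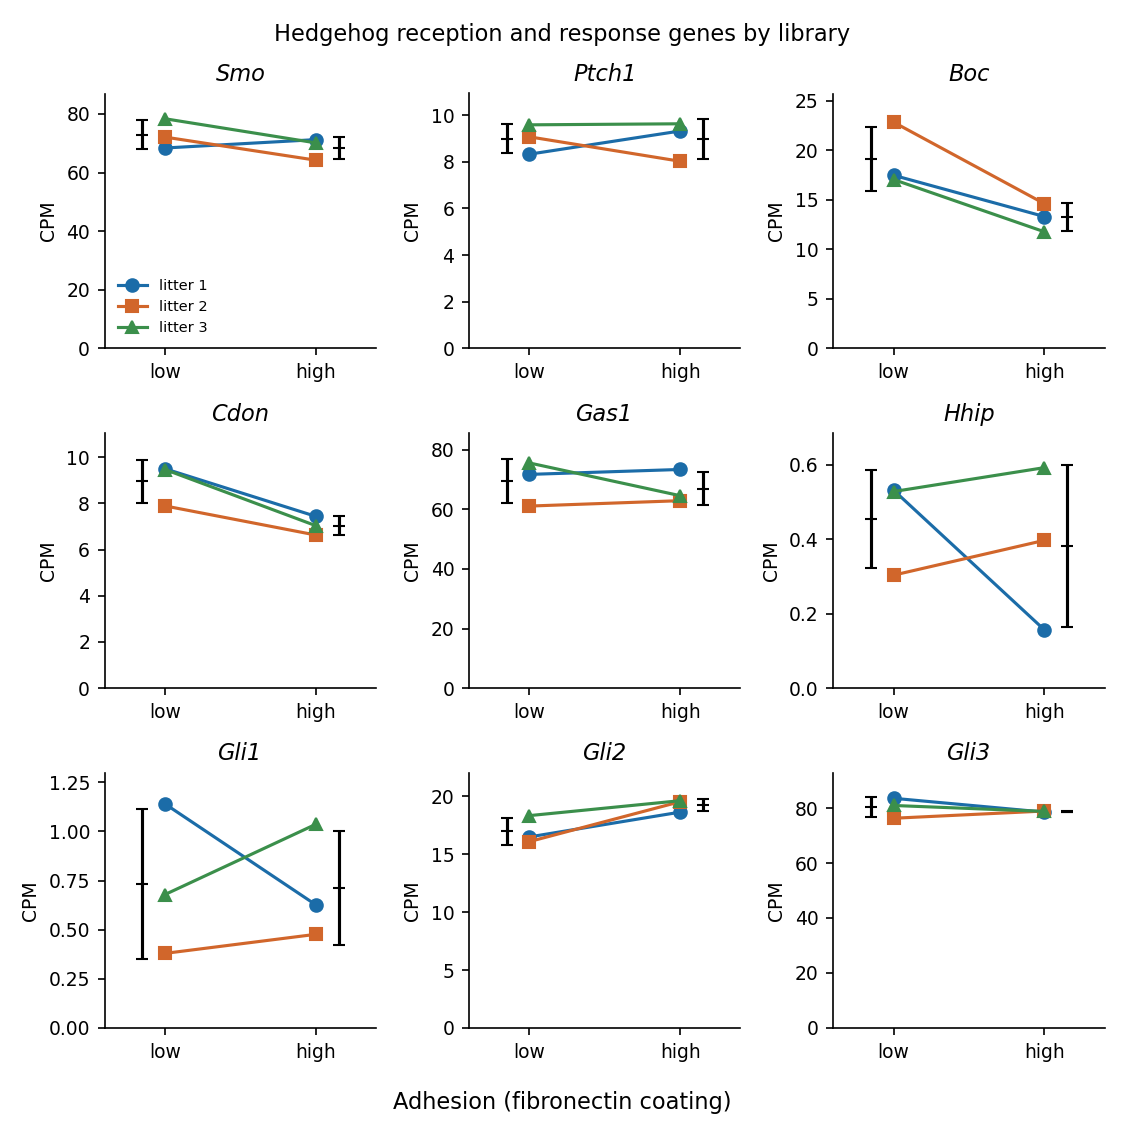
Level of each of the 9 genes in CPM (vertical axes, each from 0 and with its own scale) on the low and high adhesion substrates, with a line for each litter and bars for the mean and SD of 3 libraries. Lines for Boc and Cdon fall in all 3 litters, those for Gli2 rise, and those for Gli1 and Hhip cross at under 1.2 CPM.

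Ptch1 (ENSMUSG00000021466), both the receptor that binds the ligand and a response gene, was at 8.32, 9.07 and 9.58 CPM at low adhesion. At high adhesion it was at 9.32, 8.02 and 9.62 CPM. The groups overlapped fully, with 1 litter up, 1 down and litter 3 nearly level. The means were 8.99 ± 0.63 and 8.99 ± 0.85 CPM (SD, n = 3 each), and the log2 fold change was -0.0075 ± 0.11 (edgeR adjusted p = 0.979). The 95% interval runs from -15.1% to 16.6%. Ptch1 counts summed to 356 over the low and 350 over the high adhesion libraries. Smo (ENSMUSG00000001761), the signal transducer that Patched-1 holds in check, was at 68.4, 72.1 and 78.4 CPM at low and 71.2, 64.2 and 70.1 CPM at high adhesion. It was lower in litters 2 and 3 and higher in litter 1, and the groups overlapped. Its log2 fold change was -0.09 ± 0.06 (edgeR adjusted p = 0.364), with a 95% interval from -13.4% to 1.56%.

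Gli1 (ENSMUSG00000025407), the GLI factor that exists only as an activator, had 15, 5 and 9 counts in the low adhesion libraries of litters 1, 2 and 3 and 8, 6 and 14 in the high adhesion ones. In CPM these were 1.14, 0.379 and 0.679 at low and 0.626, 0.476 and 1.04 at high adhesion. The libraries of the 2 groups intermingled, and 1 litter fell while 2 rose. Summed counts were 29 and 28, a ratio of 0.983 with an exact 95% interval of 0.564 to 1.71, which covers counting error only. Hhip (ENSMUSG00000064325), the decoy receptor, had 7, 4 and 7 counts at low and 2, 5 and 8 at high adhesion. That is 0.532, 0.303 and 0.528 CPM against 0.157, 0.397 and 0.592 CPM. Its summed counts of 18 and 15 gave a ratio of 0.849 with an exact 95% interval of 0.398 to 1.78. These intervals are not detection limits, as they leave out variation between litters. Changes within them, or larger ones, could have been missed at this depth. Without litter 1 the ratio of means turned upwards for both genes, to a log2 value of 0.52 for Gli1 and 0.25 for Hhip. With all litters these values were -0.04 and -0.25, without litter 2 they were -0.13 and -0.50, and without litter 3 they were -0.46 and -0.59.

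Gli2 (ENSMUSG00000048402), the main activator among the GLI factors, was at 16.5, 16.1 and 18.3 CPM at low and 18.6, 19.5 and 19.6 CPM at high adhesion. The groups did not overlap and all 3 litters were higher at high adhesion. Its log2 fold change of 0.18 ± 0.08 did not pass (standard error, edgeR adjusted p = 0.194), and the 95% interval runs from 0.713% to 27.3%. Gli3 (ENSMUSG00000021318), best known as the repressor of the pathway, was at 83.5, 76.3 and 80.9 CPM at low adhesion. At high adhesion it was at 78.5, 78.9 and 78.8 CPM, a range inside that of the low group. The log2 fold change was -0.03 ± 0.05 (edgeR adjusted p = 0.817), and the 95% interval from -9.21% to 5.59% is narrow. Non-overlapping groups, as seen for Boc, Cdon and Gli2, occurred in 15.4% of all tested genes, 7.82% with the high group above and 7.6% with the low group above.

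**Figure D2:**
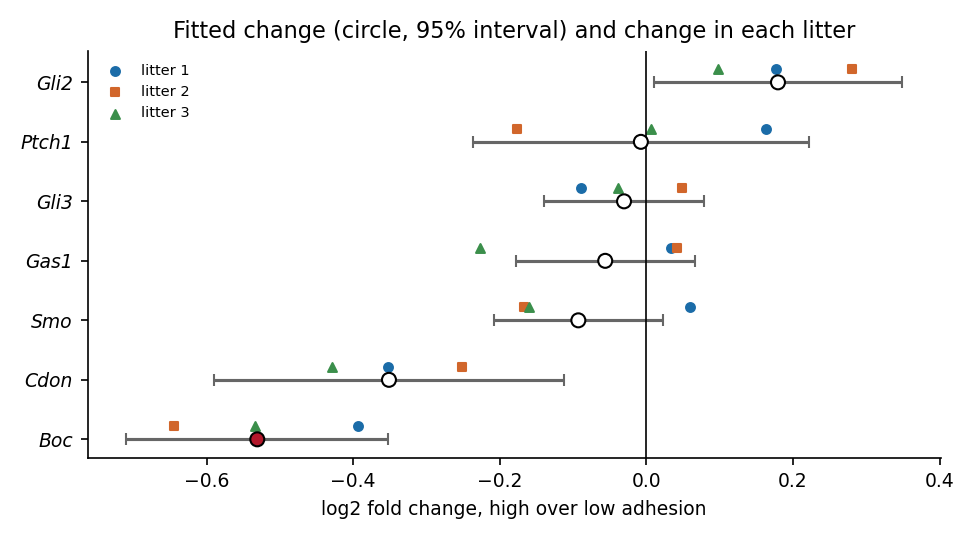
Log2 fold change of high over low adhesion (horizontal axis) for the 7 tested genes: circles with bars are the fitted value and its 95% interval, filled where called, and small symbols are the change of CPM in each litter. Boc is the filled circle at -0.53, Cdon lies at -0.35 with 3 litters below zero, and the remaining intervals include zero except that of Gli2.

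Between genes, levels can be set side by side only per length of transcript, and the labels do not say whether reads cover whole transcripts. Divided by the union of annotated exons (GENCODE M21), Gas1 was highest with 23.4 CPM per kb at low adhesion, followed by Smo with 12.98 and Gli3 with 8.37. Boc had 4.30, Gli2 2.47, Cdon 1.16 and Ptch1 0.634 CPM per kb. Gli1 had 0.147 and Hhip 0.0501 CPM per kb. The order was the same at high adhesion, where Boc with 2.97 ± 0.32 and Gli2 with 2.80 ± 0.08 CPM per kb (SD, n = 3 each) were the pair that lay within their spread of each other. By this measure the response genes were lowest and Gas1, Smo and Gli3 highest, on both substrates. The place of Ptch1 rests on the division by length, since without it Ptch1 had a mean of 8.99 CPM over the 6 libraries, above Cdon with 7.99.

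The litters were compared in the same model. In the test for a difference between litters 17.9% of all tested genes passed (edgeR F-test, adjusted), and of the 7 genes Boc passed (adjusted p = 0.0213). Boc was highest in litter 2, with a mean of 18.7 CPM over both substrates against 15.4 and 14.4 CPM in litters 1 and 3. Gas1, lowest in litter 2 at 62.0 CPM against 72.5 and 70.0 CPM, did not pass (edgeR adjusted p = 0.0883). For the other 5 the adjusted p ran from 0.449 to 0.875. Among 9180 genes of at least 5 CPM, the profile over the 6 libraries most like that of Gli1 was that of Pan3, then Mpp7 and Tnip1. Their root mean square differences on the log2(CPM + 1) scale were 0.072, 0.095 and 0.11, beside a spread of 0.23 for Gli1 itself, which rests on 5 to 15 counts. For Gli3, the gene of highest CPM of the 9, the nearest were Fam114a2, Stk16 and Ddx52 (0.0066, 0.014 and 0.015).

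Other genes of the pathway were read from 5 lists with 87 genes in all, of which 76 were tested. Of these 2 rose and 5 fell, where 9.55% of all tested genes were called, 4.71% higher and 4.83% lower. The median log2 fold change of the 76 was -0.04. Without the replicate block none of the 76 was called (edgeR, 8 at an unadjusted p under 0.05), where 0.243% of all tested genes were called and 9.16% had an unadjusted p under 0.05. DESeq2 with litter in the model called 2 of the 76 and 2.74% of all tested genes. Of 8 genes for ligands and their release, 4 were tested and Scube3 was called. Scube3, a secreted protein of a family that helps release ligand from cells, was at 18.1, 18.0 and 21.8 CPM at low and 15.3, 12.9 and 14.1 CPM at high adhesion. The groups did not overlap, and the log2 fold change was -0.46 ± 0.09 (standard error, n = 3 each, edgeR adjusted p = 0.000987), although DESeq2 did not call it (adjusted p = 0.106). Transcripts of the ligands themselves were at or near the detection limit. Shh had 0 counts in all 6 libraries, which allows at most 0.222 to 0.238 CPM per library. Ihh was between 0.114 and 0.635 CPM and Dhh between 0.0754 and 0.714 CPM, with at most 8 and 9 counts in a library.

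None of 11 tested genes of Smoothened regulation and ligand handling was called in the main edgeR analysis, DESeq2 or limma-voom, and 2 had an unadjusted edgeR p under 0.05. The most abundant, the cell-surface proteoglycan gene Gpc3 and the heparan sulfate polymerase gene Ext1, had log2 fold changes of -0.03 ± 0.05 and 0.05 ± 0.05. Evc, whose product sits at the base of the cilium and helps relay the Smoothened signal, lay at the threshold. It was at 2.89, 3.57 and 3.02 CPM at low and 2.58, 2.06 and 1.55 CPM at high adhesion (log2 fold change -0.61 ± 0.20, edgeR adjusted p = 0.0504). Evc passed in 3 of the 8 alternatives that gave it an adjusted p, namely without litter 1, with RLE size factors and with unrounded counts (edgeR adjusted p = 0.0247, 0.0492 and 0.0499). It missed the threshold without litter 2 or 3 (edgeR adjusted p = 0.184 and 0.313). DESeq2 gave Evc no adjusted p and so could not call it. Its partner Evc2 was at 9.42 ± 0.14 and 9.88 ± 0.29 CPM (SD, n = 3 each, edgeR adjusted p = 0.800).

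GLI processing genes cover the inhibitor Sufu, the kinesin Kif7, protein kinase A and ubiquitin ligase subunits that mark GLI proteins for processing or degradation. They were not called in any of 16 tested cases. The same holds in DESeq2 and limma-voom. Without litter 2, 1 was called lower, where 10.3% of all tested genes were called in either direction. An unadjusted edgeR p under 0.05 was found for 2 of the 16, beside 21.9% of all tested genes. Csnk1a1 and Prkar1a, the most abundant, had log2 fold changes of -0.04 ± 0.04 and -0.09 ± 0.04. Counts of Csnk1a1 were fractional in 5 of 6 libraries and are less certain. Sufu itself was at 22.7 ± 3.27 and 23.5 ± 1.95 CPM (SD, n = 3 each).

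Genes of the primary cilium, the organelle in which Smoothened acts, were tested in 23 of 23 cases. In edgeR 1 fell and 0 rose. Cep290, a protein of the ciliary gate, was at 24.7, 26.8 and 22.6 CPM at low and 16.6, 22.1 and 18.2 CPM at high adhesion, so that the groups did not overlap. Its log2 fold change was -0.38 ± 0.08 (standard error, n = 3 each, edgeR adjusted p = 0.0019), and it lost the call in DESeq2 (adjusted p = 0.134) and without litter 1 (edgeR adjusted p = 0.0555). The number of the 23 called lower was 1 without litter 1, 5 without litter 2, 2 without litter 3 and 0 in DESeq2 or without the replicate block. Over all tested genes 6.66%, 10.3%, 6.05%, 2.74% and 0.243% were called in these settings, in either direction. Of the 23 genes 18 had a log2 fold change below zero, and the median was -0.18, whereas 50.4% of all tested genes were below zero. Over the 11 cilium genes of at least 5 CPM, 9 were below zero and the median was -0.12. An unadjusted p under 0.05 was found for 9 of the 23 genes in edgeR, beside 21.9% of all tested genes, and for 1 of the 23 in DESeq2, beside 8.61% of all.

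Among 22 tested genes listed as Hedgehog or GLI targets from work in various tissues, 2 rose and 3 fell, with a median log2 fold change of 0.01. Over all tested genes 9.55% were called in either direction. An unadjusted p under 0.05 was found for 11 of the 22 in edgeR, beside 21.9% of all tested genes, and for 6 in DESeq2, beside 8.61%. Those that rose were Bmp2, a bone morphogenetic protein (log2 fold change 0.51 ± 0.11, edgeR adjusted p = 0.00174), and Igfbp3, a binding protein of insulin-like growth factors (0.22 ± 0.06, adjusted p = 0.00969). Igfbp3 lost the call in DESeq2 and when litter 1 or litter 3 was left out (adjusted p = 0.206, 0.0677 and 0.0844). Those that fell were Snai1, a repressor known from epithelial-mesenchymal transition (-0.34 ± 0.06), the stromal transcription factor gene Foxd1 (-0.27 ± 0.04) and Igfbp6 (-0.26 ± 0.06). The groups overlapped for Bmp2, Igfbp3 and Igfbp6, and did not for Snai1 and Foxd1. Without the replicate block edgeR called none of these genes (adjusted p = 0.746 for Bmp2 and 0.759 for Igfbp3). All of these genes have other regulators. DESeq2 called neither Bmp2 nor Igfbp6 (adjusted p = 0.168 and 0.116). The 10 cell cycle genes had a median log2 fold change of -0.03, and 9 of them were not called. The 1 called was Mki67, a proliferation marker, with a log2 fold change of -0.33 ± 0.10 (edgeR adjusted p = 0.0432). It was not called in DESeq2 (adjusted p = 0.334), without the replicate block (edgeR adjusted p = 0.681) or without litter 1, where the log2 fold change was -0.15 (edgeR adjusted p = 0.441).

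**Figure D3:**
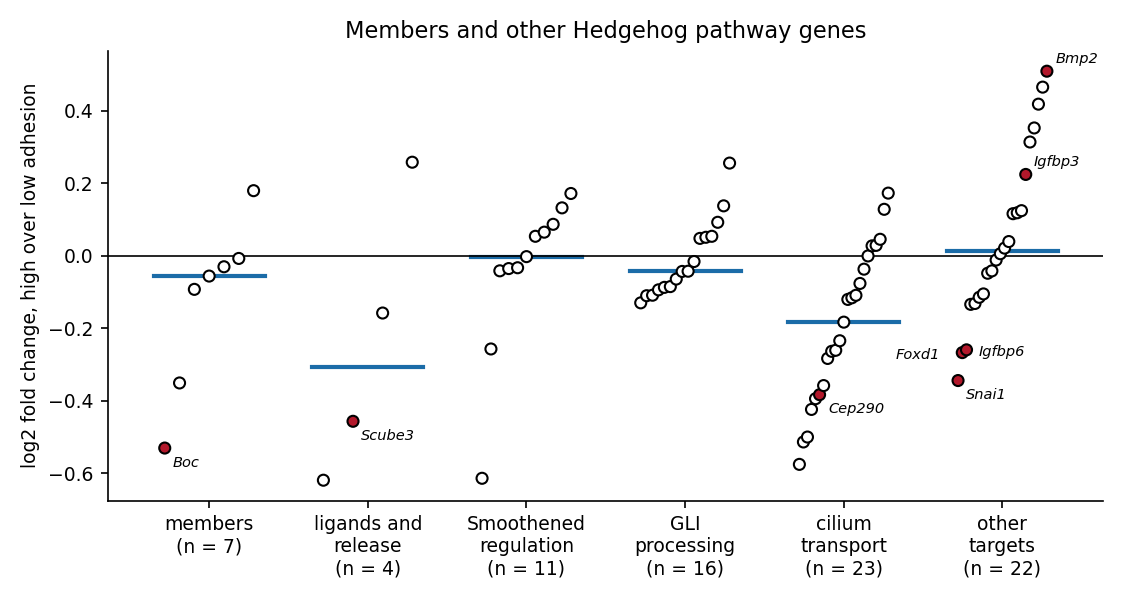
Log2 fold change of high over low adhesion (vertical axis) for each tested gene among the 7 members and in 5 pathway lists, filled and named where called, with a blue line at the list's median. No gene is called in the Smoothened regulation and GLI processing lists, and among the 22 other targets 2 rose and 3 fell. The lowest medians are -0.31 for the 4 ligand and release genes and -0.18 for the 23 cilium genes.

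In bulk RNA, fewer cells of a type and less RNA per cell cannot be told apart, so markers of the cell types that the sort could hold were read beside these genes. Nephrogenic stroma markers fell in 8 and rose in 1 of 10 cases, with a median log2 fold change of -0.31. Over all tested genes 9.55% were called in either direction, 0.243% without the replicate block, 2.74% in DESeq2 and 10.3% without litter 2. Without the replicate block 0 of the 10 were called (edgeR, 7 at an unadjusted p under 0.05), and DESeq2 called 6 lower and 0 higher. Pdgfra, the sorting marker, changed by -0.55 ± 0.08 and Pdgfrb by -0.56 ± 0.07. Tbx18, also called (edgeR adjusted p = 0.00371), changed by -0.58 ± 0.13. Meis2, Col3a1, Meis1, Foxd1 and Col1a1, called as well, changed less, by -0.40, -0.34, -0.29, -0.27 and -0.21. The summed level of the 10 was 5479 to 6282 CPM at low and 5386 to 6213 CPM at high adhesion, most of it Vim, the 1 that rose (log2 fold change 0.12, not called when any 1 litter was left out). Of 7 smooth muscle and ureteral mesenchyme markers 5 rose and 1 fell (summed 4916 to 8182 and 6888 to 10650 CPM). Most of that sum was Acta2 (mean 3936 and 5642 CPM) and Tagln (mean 2092 and 2530 CPM). Smoc2, the 1 that fell, changed by -0.75 ± 0.08 (edgeR adjusted p = 0.000109) and its groups did not overlap, whereas those of the 5 that rose did. Without the replicate block 0 of these 7 were called (edgeR, 1 at an unadjusted p under 0.05), DESeq2 called 4 higher and 1 lower, and without litter 2 edgeR called 3 higher. Litter 2 stood apart on both substrates, as for Cnn1, the gene of a smooth muscle calponin, at 7.29, 32.2 and 9.96 CPM at low and 10.6, 57.5 and 17.8 CPM at high adhesion in litters 1, 2 and 3. Of 7 tested ureteric epithelium markers 1 fell (summed 62.7 to 71.0 and 50.8 to 63.1 CPM), with Wnt9b at 0 counts in all 6 libraries. Most of that sum was Gata3, the 1 that fell (mean 44.6 and 34.5 CPM), while the median log2 fold change of the 7 was 0.14. Epcam, an epithelial adhesion gene, was at 5.91 and 7.45 CPM on average and Calb1 at 2.27 and 2.68 CPM, both with the high group above the low and neither called, so the sum gives no direction for this cell type. Nephron progenitor markers rose in 1 of 8 cases (summed 51.0 to 68.9 and 55.9 to 75.7 CPM) and endothelial markers fell in 1 of 5 (summed 41.5 to 52.3 and 36.4 to 44.7 CPM). The endothelial sum was mostly Emcn, the 1 that fell (mean 28.9 and 23.1 CPM), and Kdr, and the median log2 fold change of the 5 was 0.02 with Pecam1, Cdh5 and Tek above zero. Without the replicate block none of the ureteric, nephron progenitor and endothelial markers was called (edgeR, with 2, 0 and 0 at an unadjusted p under 0.05). In DESeq2, and in edgeR without litter 3 (6.05% of all tested genes called), no nephron progenitor or endothelial marker was called. Without litter 1 edgeR called 2 nephron progenitor markers higher and 1 endothelial marker lower, and without litter 2 it called 1 and 1. None of 7 macrophage markers was called in edgeR, DESeq2 or limma-voom, and 0 had an unadjusted edgeR p under 0.05 (summed 20.5 to 44.3 and 15.4 to 43.1 CPM). The part of these marker changes in the lower Boc level was not tested.

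**Figure D4:**
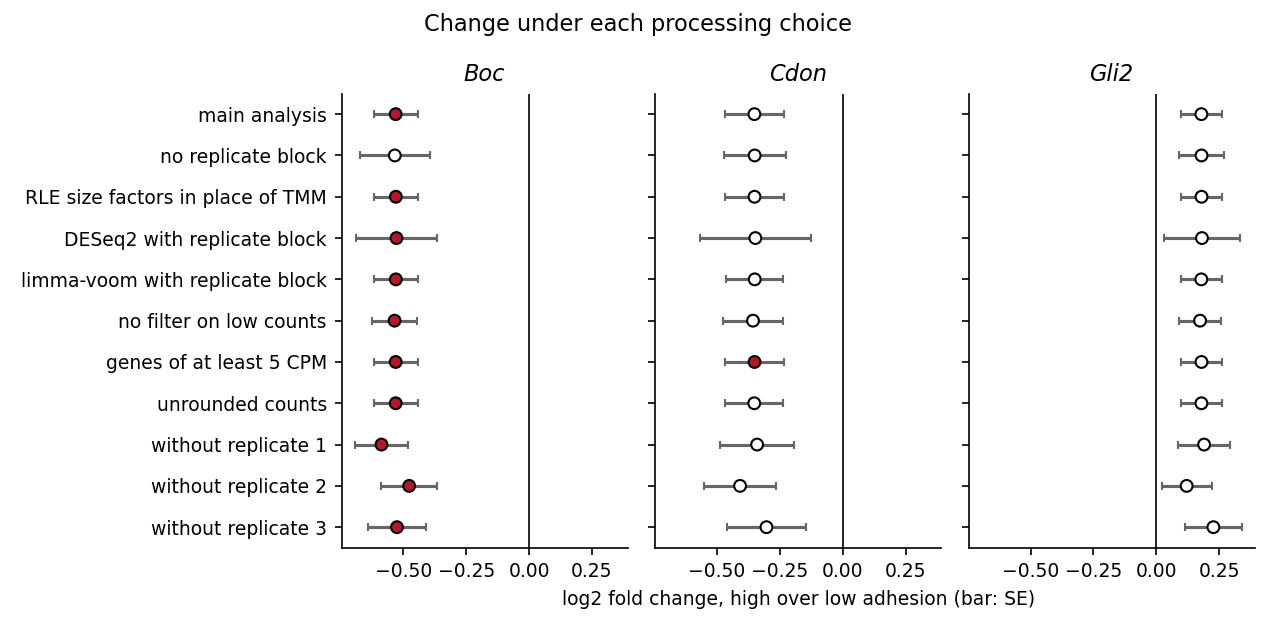
Log2 fold change of high over low adhesion with its standard error (horizontal axes) for Boc, Cdon and Gli2 in the main analysis and under 10 other processing choices, filled where called. Boc stays between -0.59 and -0.48 and is called in 10 of 11 settings, Cdon is called in 1 of 11, and Gli2 in 0.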

How the data were processed

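Polyadenylated RNA of 6 libraries was sequenced after tagmentation. Tools listed in the submitters' processing notes include fastp 0.24.0, STAR 2.7.11 and, from Subread 2.1.1, featureCounts, and the build named there is GRCm39. The annotation release is not given in the sources used here, nor are strand setting and the treatment of duplicates and multiply matching reads. What the authors deposited are estimated counts per gene, in part fractional, and CPM, both per the file headers. Of the 9 genes, Gli3, Ptch1, Cdon and Gas1 had fractional counts in 2 libraries and Smo in 3.

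After rounding, the counts went into edgeR 4.0.16 under R 4.3.3 (filterByExpr, TMM factors 0.988 to 1.011, robust quasi-likelihood test, two-sided). Litter was a block, since the design states litter-matched samples. Deviations from group means correlated within litters (0.575, 0.576 and 0.361 across genes for litters 1, 2 and 3). Correlations between litters (-0.488 to -0.0842) are pushed below 0 because deviations in a group sum to 0. A standard error is the log2 fold change over the square root of F. Where several adjusted p stand in a row they are in the order of the genes or settings named. Intervals are at 95%. The edgeR fit alone was run on simulated counts. DESeq2 and limma-voom were not, and no result here rests on that run. Alternatives were no block, RLE size factors, DESeq2 1.42.0, limma-voom 3.58.1, other filters, unrounded counts and each litter left out, both of its libraries together. In DESeq2, genes given no adjusted p, such as Evc, count as tested and not called.

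The 9 genes and all lists were chosen with earlier results of these data known. Of each list, called genes up to 6 were eligible to be named, or the 2 of highest CPM where none was called. Evc, Evc2, Sufu, Wnt9b, Vim, Tbx18, Meis1, Epcam, Calb1, Kdr, Pecam1, Cdh5, Tek, Shh, Ihh and Dhh were named after their values were seen.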

Additional observations from a re-analysis of the deposited data

How the results depend on the processing

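Over all genes, 1416 calls became 36 without the replicate block, 406 in DESeq2 and 908 to 1553 when 1 litter was left out (908 without litter 3). For the 9 genes the 1 call became 0 without the replicate block, where edgeR had 2 at an unadjusted p under 0.05. The number was 2 over genes of at least 5 CPM, where 14.0% of all tested genes were called. It remained 1 when any litter was left out. For the other pathway genes 7 calls became 0 without the replicate block (8 at an unadjusted p under 0.05 in edgeR) and 2 in DESeq2. They became 7 to 13 without 1 litter (13 without litter 2, where 10.3% of all tested genes were called). Genes near zero, none of them called, changed sign when 1 litter was left out. Their log2 ranges over these 3 fits were -0.079 to 0.0092 for Gli3 (positive without litter 1), -0.077 to 0.063 for Ptch1 (without litter 2), -0.11 to 0.035 for Gas1 (without litter 3), -0.13 to 0.041 for Gpc3 (without litter 2), -0.11 to 0.0047 for Csnk1a1 (without litter 1) and -0.0060 to 0.084 for Sufu (negative without litter 1). Boc ran from -0.59 to -0.48 in the 11 settings. The cause of these shifts was not tested. Depth limits Gli1 and Hhip, with 2 to 15 counts per library, and the ligand genes.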
